A study of Mus musculus with 8 samples.

Results

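A set of 42 mouse genes of protein folding in the endoplasmic reticulum and of the unfolded protein response was followed in furan-exposed liver. The genes were taken by symbol from a fixed list, each through the RefSeq accessions of its array probes, and the brightest probe that passed a filter stood for the gene. All 42 were on the array and passed, of 24921 genes or transcripts tested in all. They fell into 6 roles: 7 stress sensors and the factors of their activation, 6 chaperones, 6 co-chaperones and secreted stress proteins, 7 disulfide enzymes, 11 genes of degradation from the endoplasmic reticulum, and 5 genes of protein translocation.

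The endoplasmic reticulum is where hepatocytes fold, oxidise and glycosylate the plasma proteins they secrete. When unfolded proteins accumulate there, the kinases encoded by Ern1 (IRE1) and Eif2ak3 (PERK) and the membrane-bound factor ATF6 are activated, IRE1 splices the Xbp1 mRNA, and the resulting factors raise chaperone and degradation genes. Splicing, cleavage and phosphorylation are not measured by an expression array, which reports the amount of each transcript.

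The samples were livers of 8 female B6C3F1 mice, bought at 5 to 6 weeks of age and kept for at least 7 days before the study. Gavage with corn oil alone was given to 4 animals (vehicle replicates 2, 3, 4 and 6), and gavage with furan dissolved in it, at a dose of 8 mg per kg, to 4 others (furan replicates 41, 42, 43 and 44). The agent is a volatile compound formed in heated food and toxic to rodent liver. Dosing lasted 21 days and livers were frozen fresh 4 hours after the last dose. RNA was labelled with 1 dye and measured on 8 Agilent arrays of 1 slide, and a level is the log2 signal after subtracting the 75th percentile of its array, so 0 is the signal at that percentile and a change is furan minus vehicle.

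The array of vehicle replicate 2 stood apart, with 86.2% of its probe spots well above background against 55.1% to 69.4% on the other 7. Each of the 42 genes was well above background on all 8 arrays. The label of liver tissue was borne out by 8 hepatocyte markers, with mean levels from 5.95 to 10.3 and none past the test. The summed signal of 9 measured macrophage markers of 10, in multiples of the 75th percentile, ran from 137 to 337 on the vehicle arrays, highest on that of replicate 4, and from 159 to 204 on the furan arrays. The sums of 8 sinusoidal endothelium markers did not overlap, at 92.3 to 112 with vehicle and 76.3 to 92.1 with furan, with 0 of 8 past the test. Of these, Stab2 had a change of -0.48 ± 0.12 (adjusted p = 0.0687) and Pecam1 one of -0.39 ± 0.091 (0.0550), both with all furan values lower. The other changes ran from -0.28 ± 0.13 for Stab1 (0.222) to 0.055 ± 0.12 for Cdh5 (0.783), with Lyve1 at 0.0011 ± 0.11. All furan values were lower in 7.36% of all features. The sums of 7 measured bile duct markers of 8 ran from 2.00 to 4.35 with vehicle, highest on replicate 2, and from 1.95 to 2.65 with furan, and those of 8 stellate cell markers from 24.9 to 29.2 and from 24.4 to 29.4. The part of these cell types in the results below was not tested. Liver is a mixture of cell types, so fewer cells of a type and less RNA per cell cannot be told apart in what follows.

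To show the regulatory sequence that the response is known for, the promoters of the members were searched for the endoplasmic reticulum stress response element (ERSE), the joint site of the factors NF-Y and ATF6. Promoters were the 300 bases from 250 before to 50 after each start site in RefSeq (GRCm38.p6), and 36 of the 42 members had one in the table. The element is CCAAT, then 9 bases of any kind, then CCACG, and it was found on either strand in 10 of these 36 members, against 0.137% of the 27025 genes in the table (37 genes). The sites are shown in the direction of the element, 5′ to 3′, with the fixed letters in capitals.
Calr, chr8:84847075-84847093, plus strand: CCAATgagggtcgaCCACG
Canx, chr11:50325800-50325818, minus strand: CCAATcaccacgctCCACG
Creld2, chr15:88819520-88819538, minus strand: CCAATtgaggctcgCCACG
Derl3, chr10:75893242-75893260, minus strand: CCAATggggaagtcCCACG
Dnajc3, chr14:118937827-118937845, plus strand: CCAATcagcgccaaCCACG
Ero1b, chr13:12565682-12565700, minus strand: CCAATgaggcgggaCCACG
Hsp90b1, chr10:86705533-86705551, plus strand: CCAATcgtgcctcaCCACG
Hsp90b1, chr10:86705638-86705656, minus strand: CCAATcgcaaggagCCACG
Hspa5, chr2:34772025-34772043, plus strand: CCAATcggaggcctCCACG
Pdia6, chr12:17266491-17266509, plus strand: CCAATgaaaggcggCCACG
Syvn1, chr19:6046532-6046550, plus strand: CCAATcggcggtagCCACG
A further pair of elements was searched on both strands. The element ERSE-II, ATTGG and CCACG with 1 base of any kind between them, occurred in Herpud1 and Dnajb11 of the members and in 0.0444% of all genes, and the XBP1-bound core TGACGTGG in Vcp of the members and in 0.714% of all genes. The letters CCACG at the end of the first 2 elements are the same, so these searches can overlap.

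The promoter of Hspa5, which encodes the central chaperone BiP, is the textbook target of the element and is shown whole, followed by those of Serp1 and Edem3, the 2 members with the largest changes. Capitals mark the fixed letters of the element and are absent from Serp1 and Edem3, which hold none of the 3 elements in this window. The Serp1 promoter did hold 2 copies of CCACG and 1 of CCAAT, and that of Edem3 2 of each, on either strand. Those 5-letter words occur in 32.8% and 37.4% of all promoters in the table.
Hspa5, chr2:34771840-34772139, plus strand: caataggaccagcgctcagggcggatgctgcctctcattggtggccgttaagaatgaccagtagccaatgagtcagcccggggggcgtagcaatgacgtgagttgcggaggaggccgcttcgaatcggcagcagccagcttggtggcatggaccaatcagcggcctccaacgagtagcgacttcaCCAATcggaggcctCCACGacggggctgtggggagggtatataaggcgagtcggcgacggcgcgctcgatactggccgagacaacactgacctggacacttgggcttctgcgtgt
Serp1, chr3:58525835-58526134, minus strand: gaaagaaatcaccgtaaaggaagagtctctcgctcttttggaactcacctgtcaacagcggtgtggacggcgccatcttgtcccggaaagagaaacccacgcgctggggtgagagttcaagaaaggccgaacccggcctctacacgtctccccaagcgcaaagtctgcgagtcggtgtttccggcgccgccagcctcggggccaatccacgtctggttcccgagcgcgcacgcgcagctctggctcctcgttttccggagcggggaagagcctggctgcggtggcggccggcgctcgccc
Edem3, chr1:151755124-151755423, plus strand: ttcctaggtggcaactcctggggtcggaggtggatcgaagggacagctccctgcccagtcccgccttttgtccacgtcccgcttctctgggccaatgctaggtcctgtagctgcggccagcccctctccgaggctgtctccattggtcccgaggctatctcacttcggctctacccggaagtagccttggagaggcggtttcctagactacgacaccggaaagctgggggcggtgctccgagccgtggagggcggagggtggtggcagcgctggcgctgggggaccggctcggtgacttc
A match of letters is a description of the sequence and was not tested as a binding site.

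The comparison of furan with vehicle asked how the genes of this pathway differed after 3 weeks of exposure. Of the 42 members, 4 rose and 0 fell in limma with Benjamini-Hochberg adjustment over all features, at an adjusted p under 0.05. The 4 were Serp1, a small translocon-associated protein gene, at 1.66-fold, Edem3, a mannosidase gene of glycoprotein degradation, at 1.65-fold, Mbtps2, the site-2 protease gene, at 1.41-fold, and Ssr1, a translocon-associated receptor subunit gene, at 1.35-fold. Over all features, 2.87% passed upward and 1.31% downward (4.18% either way), against 9.52% of the members upward. At an unadjusted p under 0.05, 11 members were higher and 0 lower, against 12.3% and 11.5% of all features. Neither Hspa5 nor Hsp90b1, the main chaperone genes of the response, passed, nor did any disulfide enzyme gene.

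The furan and vehicle arrays did not overlap, with all furan values higher, in 11 members or 26.2%, and in 10.8% of all features. The furan values were all lower in 0 members and in 7.36% of all features. The members were bright probes for the most part, 26 of them among the brightest 25% of features, and there the share without overlap was 20.1% upward and 4.69% downward, and the share called 4.48% higher and 0.963% lower. Changes were above 0 in 35 members (27 with the shift by the brightest 25% and 41 with the median shift), in 39.8% of all features and in 65.8% of the brightest 25%. The median change was 0.16 over the members, -0.09 over all features and 0.09 over the brightest 25%. The number of members above the median of all features depended on the scaling, at 38 with the 75th percentile and 26 under quantile normalization.

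**Figure D1:**
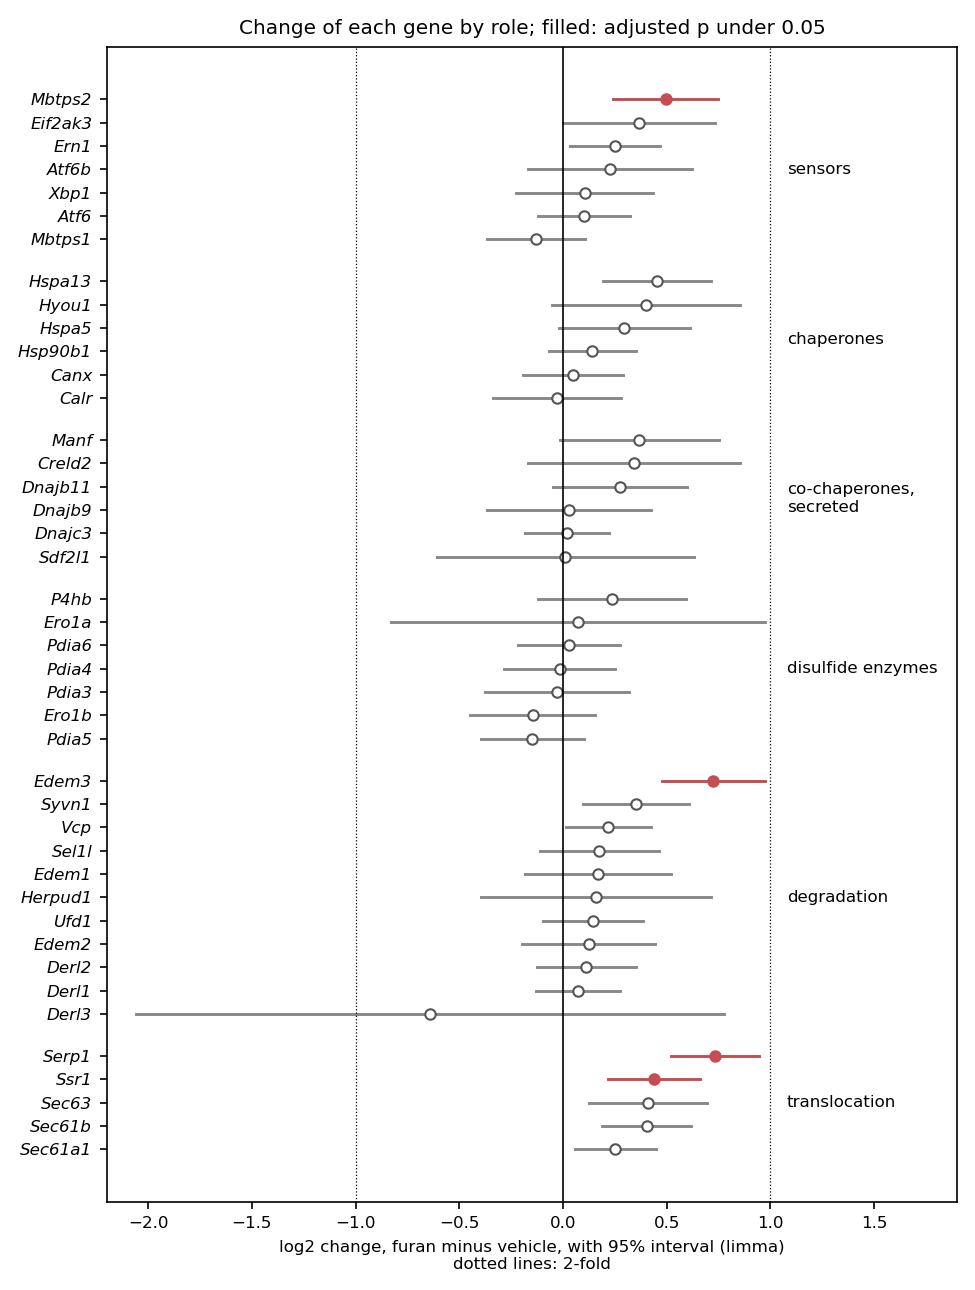
Log2 change of furan minus vehicle (x axis) for each of the 42 genes (y axis, grouped by role), as points with the 95% interval of the limma fit as lines, filled red where the adjusted p was under 0.05. The 4 filled points are Mbtps2, Edem3, Serp1 and Ssr1, and the 5 translocation genes all have intervals above 0.

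Translocation genes, which carry and anchor nascent chains at the channel into the endoplasmic reticulum, were the role with the highest median change, 0.41. Of 5, 2 rose and 3 did not pass, and in all 5 the furan arrays lay above the vehicle arrays. Over all features 2.87% rose and 10.8% were free of overlap upward, and among the brightest 25% of features 4.48% and 20.1%. A further list of 19 translocon and signal recognition genes, read below, had a lower median of 0.15. Of those 19, 2 rose and 6 were free of overlap upward. Serp1 had levels of 3.41, 3.58, 3.73 and 3.50 on the vehicle arrays, in the order of replicates 2, 3, 4 and 6, and of 4.31, 4.25, 4.32 and 4.28 on the furan arrays of replicates 41 to 44. The furan values were the tightest of its arrays, with an SD of 0.030 against 0.14 in the vehicle group (n = 4 each), and the groups did not overlap. Serp1 rose by 0.73 ± 0.091 (SE, adjusted p = 0.0107). Ssr1 had vehicle levels of 3.87, 4.02, 4.03 and 4.05 and furan levels of 4.51, 4.28, 4.57 and 4.37, without overlap, the lowest value being that of vehicle replicate 2. Ssr1 rose by 0.44 ± 0.096 (adjusted p = 0.0483), and its 2 dimmer probes gave 0.30 and 0.20, neither past the threshold. With each probe tested on its own, the tested Ssr1 probe had an adjusted p of 0.0574.

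The channel subunit genes and their partner did not pass in the comparison as designed. Sec61b, the beta subunit of the Sec61 channel, had vehicle levels from 6.10 to 6.22 and furan levels from 6.38 to 6.69, a change of 0.40 ± 0.093 (adjusted p = 0.0550). Sec61b did pass with the filter on all 8 arrays (0.0386) and with the trend and robust options of limma (0.0168), and its other probe gave 0.12. It passed in no other setting, among them the authors' value table (limma, 0.157) and the mean of probes (0.132). Sec61a1, the pore-forming subunit, had a change of 0.25 ± 0.084 (adjusted p = 0.128), with vehicle levels up to 5.47 and furan levels from 5.52. Sec63, which recruits BiP to the channel, had a change of 0.41 ± 0.12 (adjusted p = 0.101), and its second, dimmer probe went to -0.14. With the tested probe, the 5 changes were above 0 and above the median of all features under each scaling tried.

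**Figure D2:**
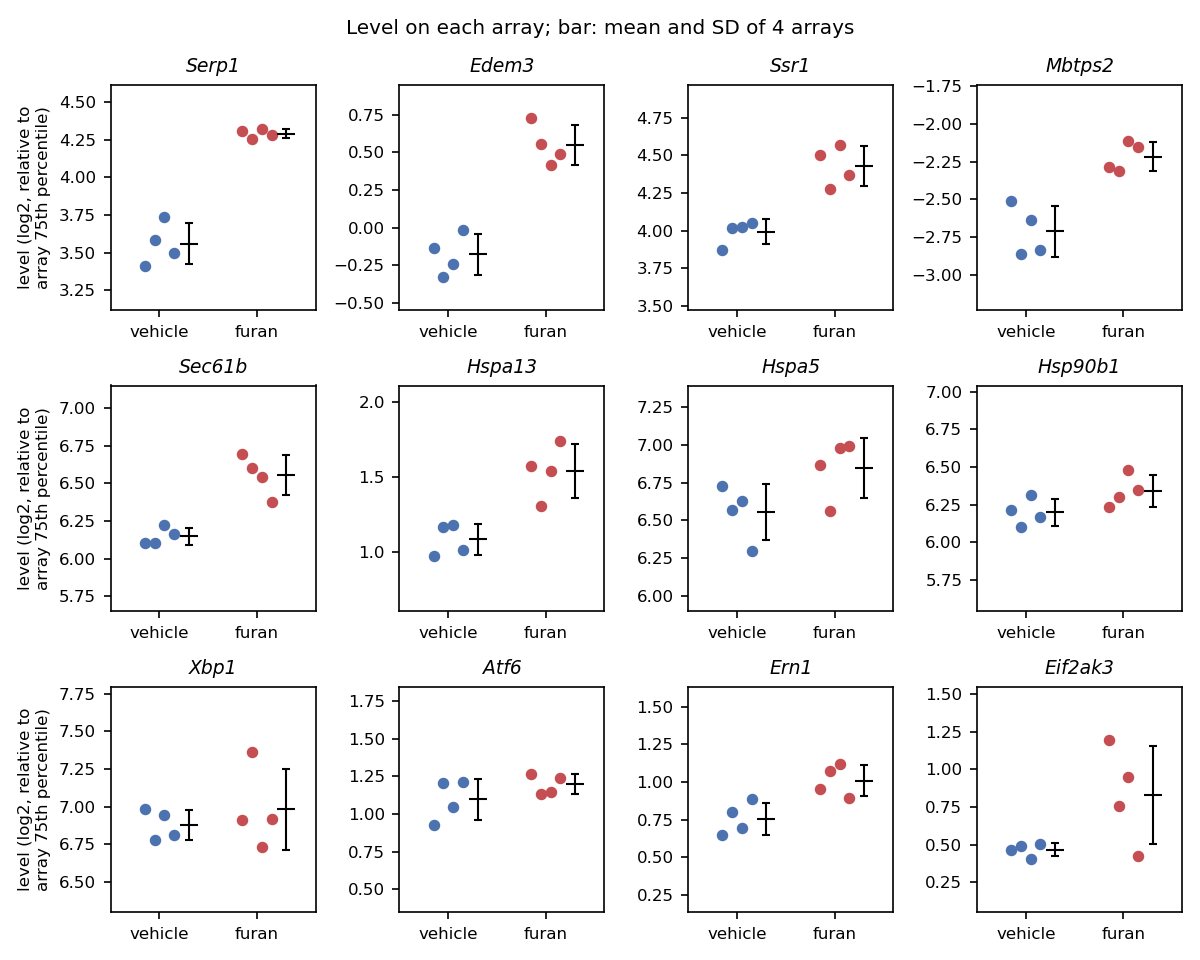
Level on each array (y axis, log2 signal relative to the 75th percentile of the array, each panel spanning 1.5 log2 units) for 12 genes in the vehicle and furan groups (x axis), with the mean and SD of 4 arrays as bars. Serp1, Edem3, Ssr1 and Mbtps2 show 2 separate groups, while the groups of Hspa5, Hsp90b1, Xbp1, Atf6 and Eif2ak3 overlap.

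Among the sensors and activating factors, 1 of 7 rose. Mbtps2 encodes the protease that makes the final cut releasing ATF6, and also acts on the sterol factors SREBP. Its levels were -2.51, -2.86, -2.64 and -2.84 on the vehicle arrays and -2.29, -2.31, -2.11 and -2.15 on the furan arrays, so that vehicle replicate 2 came nearest to the furan group. Mbtps2 rose by 0.50 ± 0.11 (adjusted p = 0.0485), or by 0.56 without vehicle replicate 2 (0.0356). Under quantile normalization its change was 1.07 and did not pass (0.206). Mbtps1, the protease of the first cut, had levels from 4.19 to 4.52 with vehicle and 4.14 to 4.31 with furan and a change of -0.13 ± 0.10 (adjusted p = 0.427).

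Ern1 had levels of 0.65, 0.80, 0.69 and 0.89 on the vehicle arrays and 0.95, 1.07, 1.12 and 0.89 on the furan arrays. The groups met at 0.89 without crossing, and the change of 0.25 ± 0.094 did not pass (adjusted p = 0.162). Eif2ak3 had vehicle levels within 0.41 to 0.50 and furan levels of 1.20, 0.76, 0.95 and 0.43, so that 3 furan arrays lay above the vehicle range and replicate 44 within it. Its change was 0.37 ± 0.16 (adjusted p = 0.210), with SDs of 0.33 in the furan and 0.043 in the vehicle group. Atf6 was at 0.93, 1.21, 1.04 and 1.21 with vehicle and at 1.27, 1.13, 1.15 and 1.24 with furan, overlapping, with a change of 0.10 ± 0.095 (adjusted p = 0.509).

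Its relative Atf6b had a change of 0.23 ± 0.17 (adjusted p = 0.414). Xbp1 was at 6.98, 6.78, 6.94 and 6.81 on the vehicle arrays and at 6.91, 7.37, 6.73 and 6.92 on the furan arrays. Only furan replicate 42 lay above the vehicle range, and furan replicate 43 was the lowest of the 8. The change of 0.10 ± 0.14 (adjusted p = 0.649) had a 95% interval of 0.855-fold to 1.35-fold.

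Of the 6 chaperone genes, 0 passed and 1 had no overlap between the groups (Hspa13). Hspa5 had levels of 6.73, 6.57, 6.63 and 6.30 with vehicle and 6.86, 6.56, 6.98 and 6.99 with furan. The furan arrays of replicates 41, 43 and 44 lay above the vehicle range, and replicate 42 fell inside it. The change was 0.29 ± 0.14 (adjusted p = 0.233), and its 95% interval ran from 0.985-fold to 1.53-fold. Hsp90b1, the chaperone Grp94, was at 6.21, 6.10, 6.31 and 6.16 with vehicle and at 6.23, 6.30, 6.48 and 6.35 with furan, a change of 0.14 ± 0.091 (adjusted p = 0.350) with an interval of 0.954-fold to 1.28-fold.

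Hspa13, a microsomal Hsp70 relative, had vehicle levels of 0.98, 1.17, 1.18 and 1.02 and furan levels of 1.58, 1.31, 1.54 and 1.74, all higher. Its change of 0.45 ± 0.11 had an adjusted p of 0.0634, and the second probe gave 0.35. Hspa13 did pass in the authors' deposited value table (limma, adjusted p = 0.0364), with the filter on all 8 arrays (0.0437) and with the trend and robust options (0.0291). It passed in no other setting, among them quantile normalization (0.0934) and the mean of probes (0.0672). Hyou1, which exchanges the nucleotide of BiP, had vehicle levels of -1.49, -1.78, -1.51 and -1.95 and furan levels of -1.54, -1.62, -1.11 and -0.87. The furan arrays of replicates 43 and 44 were its highest, the groups overlapped, and the change was 0.40 ± 0.20 (adjusted p = 0.255). The lectin chaperone genes Calr and Canx had changes of -0.029 ± 0.13 and 0.048 ± 0.10, whose signs flipped with the scaling (0.46 under the median shift and -0.05 under quantile normalization).

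None of the 6 co-chaperone and secreted protein genes passed or was free of overlap. Manf, a secreted stress-induced factor, was at 3.38, 3.26, 3.32 and 2.94 with vehicle and 3.46, 3.26, 3.74 and 3.89 with furan, with a change of 0.37 ± 0.17 (adjusted p = 0.223). Creld2, also secreted under stress, was at 4.68, 4.71, 4.77 and 4.12 with vehicle and at 4.83, 4.41, 5.21 and 5.20 with furan, a change of 0.34 ± 0.22 (adjusted p = 0.354). In both, vehicle replicate 6 was the lowest of the 8 arrays and furan replicates 43 and 44 the highest. The BiP co-chaperone gene Dnajb11 had a change of 0.27 ± 0.14 (adjusted p = 0.268) with the tested probe, and its other, dimmer probe went to -1.08 (adjusted p = 0.0237 when each probe was tested on its own), so its direction is uncertain. Dnajb9, Dnajc3 and Sdf2l1, which serve BiP as well, had changes of 0.029 ± 0.17, 0.02 ± 0.088 and 0.012 ± 0.27, all 3 below 0 under quantile normalization.

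Within the chaperones and co-chaperones the same animals recurred at the ends. Of these 12 genes, 8 had their lowest value on the array of vehicle replicate 6, and 9 their highest on the array of furan replicate 43 or 44. Over all 42 members, vehicle replicate 6 was lowest in 15 and vehicle replicate 2 in 9, and furan replicates 41 and 43 were highest in 13 each. The same count was not made over all features, so an offset of a whole array cannot be told apart from these genes. The spread within the groups had a median SD of 0.25 for the co-chaperones and 0.17 for the chaperones, against 0.10 for the translocation genes and 0.22 for all features.

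**Figure D3:**
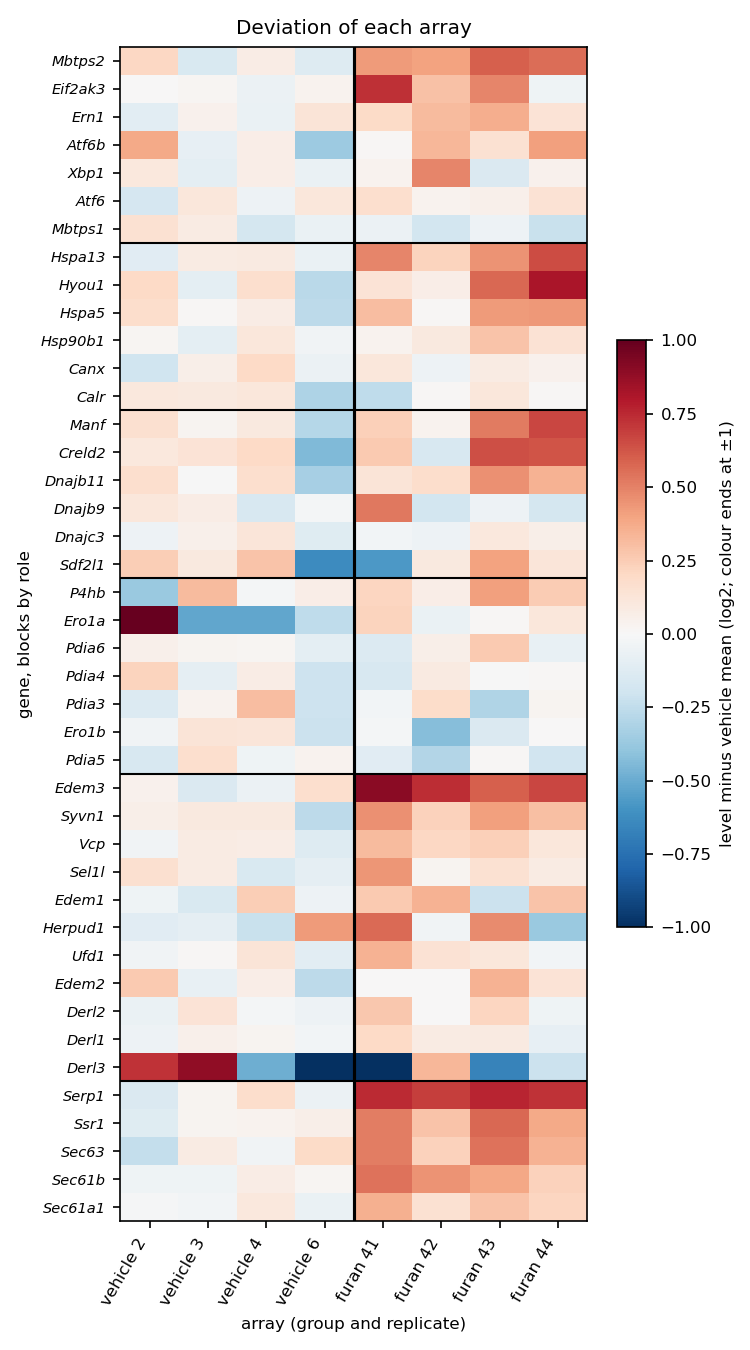
Level of each gene minus its vehicle mean (colour, log2, ends at 1 in either direction) for the 42 genes in rows, in blocks by role, and the 8 arrays in columns. The 4 furan columns are red throughout the translocation block, while in the chaperone and co-chaperone blocks the median deviations are highest on furan replicates 43 and 44 (0.35 and 0.29, 0.43 and 0.23) and lowest on vehicle replicate 6 (-0.16 and -0.31).

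Of the 7 disulfide enzyme genes, which form and rearrange the cysteine bonds of secreted proteins, 0 passed, 3 had changes above 0 and 4 below with the 75th percentile (7 above under the median shift), and the median was -0.02. P4hb, protein disulfide isomerase itself, was at 5.90, 6.59, 6.25 and 6.33 with vehicle and at 6.48, 6.34, 6.68 and 6.52 with furan, a change of 0.24 ± 0.15 (adjusted p = 0.357). Only furan replicate 43 exceeded the vehicle range. Pdia5 was at 3.52, 3.85, 3.64 and 3.72 with vehicle and 3.57, 3.39, 3.70 and 3.49 with furan, a change of -0.15 ± 0.11 (adjusted p = 0.398). The changes of Pdia3, which works with the lectin chaperones, Pdia4 and Pdia6 lay between -0.03 and 0.03.

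Of the oxidases that feed these enzymes, Ero1b (listed as Ero1lb) had a change of -0.15 ± 0.13. Ero1a (listed as Ero1l) was at -1.51, -3.32, -3.32 and -3.06 with vehicle and at -2.58, -2.86, -2.79 and -2.68 with furan. All 4 furan values lay between vehicle replicate 2 and the other vehicle arrays. Its change was 0.072 ± 0.39 (adjusted p = 0.916) with that array and 0.50 (0.0582) without it.

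Of the 11 degradation genes, 1 rose and 10 did not pass. Edem3 was at -0.13, -0.33, -0.24 and -0.01 on the vehicle arrays and at 0.73, 0.56, 0.42 and 0.49 on the furan arrays, without overlap. Edem3 rose by 0.73 ± 0.11 (adjusted p = 0.0166). Its relatives Edem1 and Edem2 had changes of 0.17 ± 0.15 and 0.12 ± 0.14, with adjusted p of 0.485 and 0.575. Whether Edem3 differed from them was not tested.

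The ligase gene Syvn1 (HRD1) had vehicle levels from 5.18 to 5.54 and furan levels from 5.67 to 5.90, free of overlap, and a change of 0.35 ± 0.11 (adjusted p = 0.112). Its partner Sel1l had a change of 0.18 ± 0.12 (adjusted p = 0.388) and Herpud1, a stress-induced part of the same complex, one of 0.16 ± 0.24 (0.676), with furan levels of 6.08, 5.48, 5.98 and 5.14. The furan arrays of Herpud1 thus held both the highest and the lowest of its 8 values. Vcp, the ATPase that pulls proteins out of the membrane, had no overlap, with a change of 0.22 ± 0.089 (adjusted p = 0.188), and its cofactor gene Ufd1 (listed as Ufd1l) a change of 0.14 ± 0.11. The derlin genes Derl1 and Derl2 had changes of 0.072 ± 0.087 and 0.11 ± 0.10.

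Derl3, the third derlin gene, was the least steady member, at 1.12, 1.28, -0.10 and -0.72 with vehicle and -1.62, 0.73, -0.27 and 0.18 with furan. Its change of -0.64 ± 0.61 (adjusted p = 0.509) had an interval of 0.240-fold to 1.71-fold. Derl3 is known from secretory cells such as plasma and pancreatic acinar cells. The mean levels of the measured markers ran from -4.15 to 0.72 for plasma and B cells and from -4.12 to 0.014 for exocrine pancreas. Their medians were -2.91 and -1.97, against -0.59 for all features. The summed signal of 9 measured plasma and B cell markers of 10 ran from 3.04 to 4.58 with vehicle and from 2.92 to 3.42 with furan. The brightest of the 9, Cd38, weighs most in that sum and had a change of 0.016 ± 0.17. The median change of the 9 was -0.34, and 0 passed the test. At an unadjusted p under 0.05 in limma 4 were lower, against 11.5% of all features. Pou2af1, at -0.45 ± 0.12 (adjusted p = 0.0763), had all furan values lower. Of 10 exocrine pancreas markers, 4 were measured, and Prss2, Cpa1, Cpb1, Pnlip, Cuzd1 and Ptf1a did not pass the filter. The sums of the 4 did not overlap, at 1.99 to 2.34 with vehicle and 1.41 to 1.82 with furan. Their median change was -0.77, with 0 past the test and 2 lower at an unadjusted p under 0.05. Those were Cela2a at -1.06 ± 0.27 (adjusted p = 0.0688) and Ctrb1 at -0.48 ± 0.15 (0.103). Both had all furan values lower, as did 7.36% of all features. The part of these cell types in the result was not tested.

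The intervals bound what could have been missed in the 38 members that did not pass. In each of the 38 the upper end of the 95% interval was under 2-fold, the highest being 1.96-fold for Ero1a, and in 22 it was under 1.5-fold. The lower end was above 0.5-fold in 37, Derl3 being the exception. These bounds are for the tested probe of each gene, and the other Dnajb11 probe, at -1.08, lay outside the interval counted here for Dnajb11 (0.967-fold to 1.51-fold). These intervals are not adjusted for the number of genes.

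By promoter, the 10 members with an ERSE had a median change of 0.04, with 0 of 10 past the test and 1, Syvn1, free of overlap. The 26 members whose promoter held no ERSE had a median of 0.17, with 4 past the test and 8 free of overlap. These 26 include Herpud1 and Dnajb11, which hold ERSE-II, and Vcp, which holds the XBP1-bound core. Only exact matches within the 300 bases were counted, so a site outside them or with a changed letter is missed. Hspa5, Hsp90b1, Calr, Canx, Pdia6, Dnajc3, Creld2, Ero1b, Derl3 and Syvn1 formed the first set, and the 4 genes that rose were all in the second. Over all features 2.87% passed upward and 10.8% were free of overlap upward, and among the brightest 25% of features 4.48% and 20.1%. The 0 of 10 past the test and the 1 free of overlap in the first set lie near those shares. The difference between the sets was not tested. Of 8 further tested genes with an ERSE, Acnat2 and Hnrnpa3 rose, named after their values were seen, and the median change of the 8 was -0.12. Alg12 was the only one of those 8 in the pathway lists below.

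**Figure D4:**
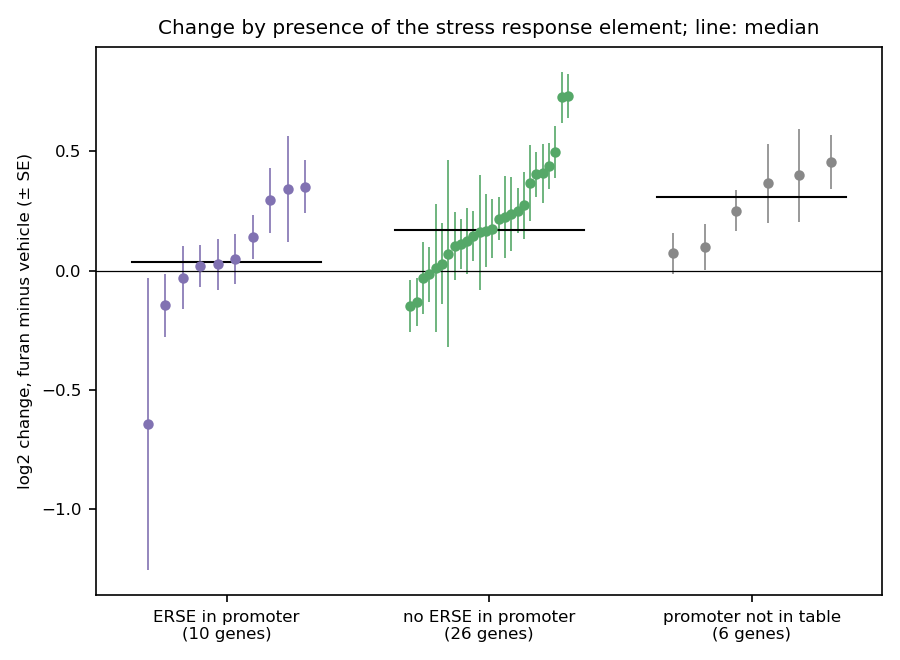
Log2 change of furan minus vehicle with its SE (y axis) for members with an ERSE in the promoter, members whose promoter holds none, and members whose promoter is not in the table (x axis), each point a gene and each line a median. The medians are 0.04, 0.17 and 0.31, and the points of the first 2 sets overlap.

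A further 143 genes of the same pathway, in 8 lists, were read beside the members. Of 139 measured, 11 rose and 1 fell, with a median change of 0.13. Of the 139, 38 or 27.3% were free of overlap upward and 5 downward. Over all features 2.87% rose and 1.31% fell, and 10.8% were free of overlap upward and 7.36% downward, the upward share being 20.1% among the brightest 25%. In N-glycosylation and glycan quality control 2 of 24 rose, the oligosaccharyltransferase genes Ostc at 0.63 ± 0.11 and Stt3b at 0.54 ± 0.12, and Mcfd2, an export receptor subunit gene, had a change of 0.32 ± 0.081 (adjusted p = 0.0686). Among translocon and signal recognition genes 2 of 19 rose, the translocating chain-associated gene Tram1 at 0.46 ± 0.079 and the signal recognition particle gene Srp19 at 0.52 ± 0.093, and Srp9 had 0.34 ± 0.085 (0.0660). In further degradation genes 3 of 23 measured rose, namely Rad23b, which delivers substrates to the proteasome, at 0.72 ± 0.079, the conjugating enzyme gene Ube2j1 at 0.47 ± 0.09 and Selenos, a partner of the derlins, at 0.40 ± 0.088.

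Of the export and retrieval genes, 2 of 23 rose, the COPII coat gene Sec24d at 0.63 ± 0.13 and the transport gene Bet1 at 0.51 ± 0.11, and the retrieval receptor gene Kdelr2 had 0.42 ± 0.095 (adjusted p = 0.0533). Of 19 measured further thiol and proline folding enzymes 0 passed, with Erp29 at 0.26 ± 0.099, Vkorc1 at -0.21 ± 0.089 and Sil1 at -0.22 ± 0.096. Among 17 measured regulators 0 passed, with Ufl1 and Ufm1 of the protein modifier UFM1 at 0.54 ± 0.13 and 0.39 ± 0.094 (adjusted p = 0.0617 and 0.0618) and Creb3l2 at 0.62 ± 0.20. Most of the 17 went the other way, with 7 changes above 0 and 10 below. Their median was -0.05 and the lowest change -0.96. Of 6 transcripts known to be cut by IRE1, 0 passed, and Scara3 had a change of -0.51 ± 0.20, Pmp22 one of -0.14 ± 0.085 and Sparc one of 0.16 ± 0.10. Of 8 genes downstream of PERK, Atf3 and Atf4 rose by 2.69 ± 0.32 and 0.64 ± 0.10, and Chac1 fell by 1.32 ± 0.25. The other 5 did not pass and went both ways. Trib3 had a change of -0.91 ± 0.22, Asns 1.19 ± 0.30, Ppp1r15a 0.28 ± 0.11, Ddit3 0.25 ± 0.16 and Ppp1r15b -0.17 ± 0.11.

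The 4 calls among the members differed in how they stood up. When arrays were dropped singly, in 8 fits, Serp1 passed in 8 (adjusted p from 0.0173 to 0.0461), Edem3 in 4, Mbtps2 in 1 (without vehicle replicate 2) and Ssr1 in 0 (0.0722 to 0.133). Dropping vehicle replicate 4 (0.0527) ended the Edem3 call, as did dropping furan replicate 41 (0.0525), 42 (0.0545) or 44 (0.0513). A block for slide column was also fitted, since every column carried a vehicle and a furan array. In that limma fit 0 members and 0 of all features passed, while 12 members and 4723 features had an unadjusted p under 0.05. Within the columns furan was higher in 4 of 4 for each of the 4 genes, by 0.55 to 0.89 for Serp1, 0.57 to 0.86 for Edem3, 0.22 to 0.75 for Mbtps2 and 0.23 to 0.63 for Ssr1.

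**Figure D5:**
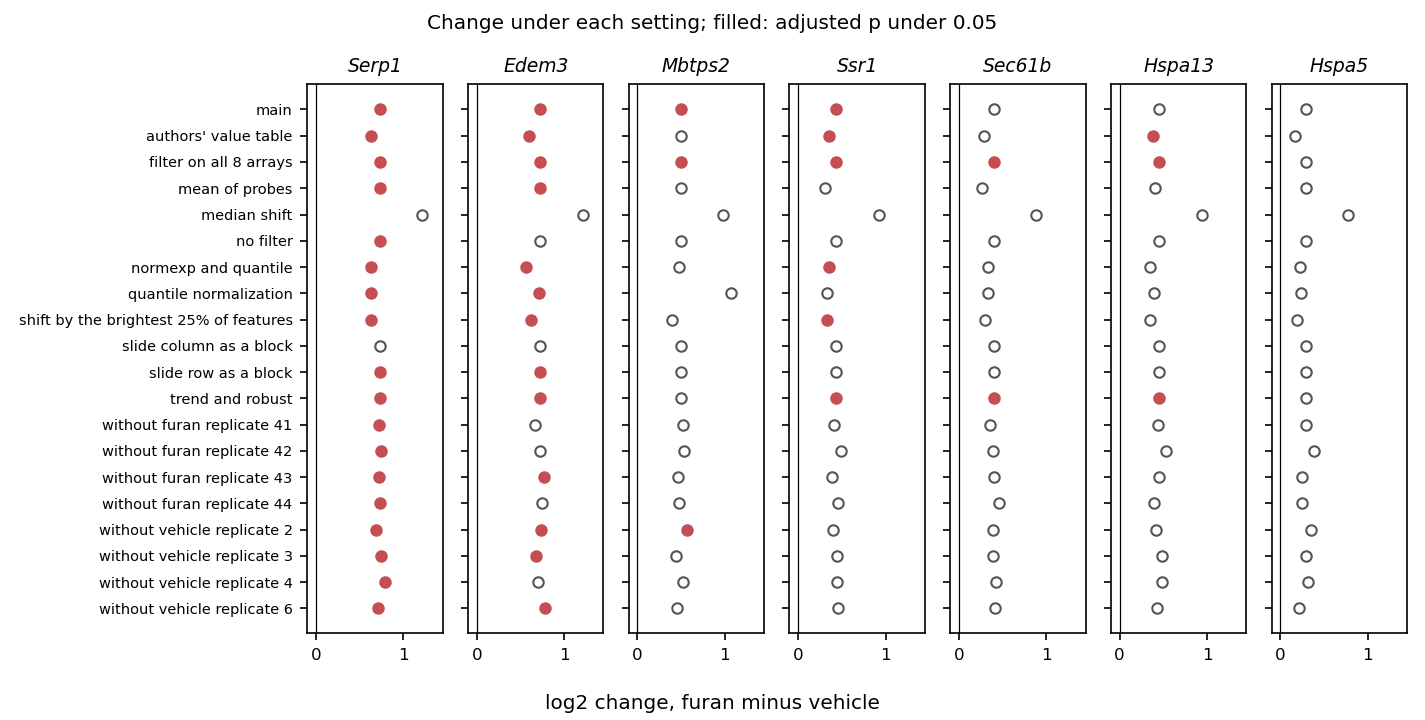
Log2 change of furan minus vehicle (x axis) for 7 genes (panels) under the main setting and each alternative (y axis), filled where the adjusted p was under 0.05. The changes of the 7 genes stay above 0 under each setting shown, and Serp1 and Edem3 are the most often filled, while the median shift and the slide column block leave 0 of the 7 filled.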

How the data were processed

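RNA of 8 livers was measured on 8 one-colour arrays, with intensities deposited by the authors as scanner files of Agilent Feature Extraction 11.0.1.1 (design 028005), per the file headers. The processed intensity is background-subtracted and detrended within its array. The authors' deposited value table is in log2 units; how it was made is not stated in the labels or headers. Control spots and outlier-marked spots were left out, each array was shifted to its 75th percentile, and spots of a probe were averaged. Probes well above background on at least 4 of 8 arrays were kept, 33848 of 55681, and the brightest kept probe stood for a gene, giving 24921 features. Symbols came from RefSeq accessions through a table for GRCm38.p6, which named 27235 of 28685 such probes, and older symbols were updated there. The probe annotation is against another build, mm9, and its positions were not used. Positions of promoters and elements are those of the RefSeq promoter table (GRCm38.p6).

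The test was the 2-sided moderated test of limma 3.58.1 (lmFit, then eBayes; R 4.3.3), and p-values were adjusted by Benjamini-Hochberg across the 24921 features. Which animals share a block of the randomized design is not labelled, so 1 group term was fitted. The number of arrays limits the precision. The fit was tested on simulated data. The members and lists were chosen with earlier results of these data known. All members are named. Values on every array are given for members past the threshold, for 6 fixed members and for the 2 largest changes in each role. Of each further list, up to 3 genes with the smallest adjusted p are named, and all those downstream of PERK, with their change and SE. The alternatives are in the closing section, and the shift by the brightest 25% of features was added after the data were seen. Plots used matplotlib 3.10.9.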

Additional observations from a re-analysis of the deposited data

Results flagged for a closer look

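In 6 of 84 sets of 4 arrays (42 genes in both groups), 1 array lay far from the other 3 by Dixon's criterion, and chance gives about 1 set in 20. Vehicle replicate 6 was low in 3 genes, at 5.17 for Calr (others 5.57 to 5.59), 4.12 for Creld2 (others 4.68 to 4.77) and 5.18 for Syvn1 (others 5.50 to 5.54). Vehicle replicate 2 was high for Ero1a, at -1.51 against -3.32 to -3.06, and low for Ssr1, at 3.87 against 4.02 to 4.05. Furan replicate 43 was low for Edem1, at 2.55 against 3.03 to 3.11. The Syvn1 change without vehicle replicate 6 is 0.27 and that of Ssr1 without vehicle replicate 2 is 0.40, neither past the threshold.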

How the results depend on the processing

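Of 42 members, 4 passed, and the count was 6 with the filter on all 8 arrays, 5 with trend and robust, 3 with the shift by the brightest 25% or with normexp and quantile, again 4 in the values the authors deposited, 2 with the mean of probes, quantile normalization or slide row as a block, 1 with no filter, 0 with the median shift, slide column as a block or an adjusted p under 0.01, and 1 to 3 without single replicates. Over all features 1041 passed, against 1668 in the authors' value table, 1733 with the filter on all 8 arrays, 2001 with trend and robust, 163 with no filter, 86 with the median shift, 0 with the column block (4723 at an unadjusted p under 0.05), 101 under 0.01, and 195 to 927 without single replicates. In the further lists 12 passed, against 20 with the filter on all 8 arrays, 27 with trend and robust, 2 with no filter or under 0.01, 1 with the median shift, 0 with the column block, and 2 to 7 without single replicates. The share of calls that were higher was 68.6%, 98.8% with the median shift and 43.3% with the shift by the brightest 25%, and the median of all features -0.09, 0.39 and -0.20.

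Signs reversed in members that did not pass. The changes were Mbtps1 0.36, Calr 0.46, Pdia3 0.46, Pdia4 0.47, Pdia5 0.34 and Ero1b 0.34 under the median shift. In the authors' value table they were Canx -0.043, Dnajb9 -0.00054, Dnajc3 -0.073, Sdf2l1 -0.048, Pdia6 -0.077 and Derl2 -0.011. With normexp and quantile they were Canx -0.028, Dnajb9 -0.043, Dnajc3 -0.096, Sdf2l1 -0.083, Pdia6 -0.030 and Derl1 -0.013. With quantile normalization alone they were Canx -0.050, Dnajb9 -0.062, Dnajc3 -0.079, Sdf2l1 -0.071, Pdia6 -0.039 and Derl1 -0.040. With the shift by the brightest 25% they were Canx -0.055, Dnajb9 -0.073, Dnajc3 -0.083, Sdf2l1 -0.091, Pdia6 -0.075, Derl1 -0.030, Ero1a -0.031 and Atf6 -0.0028. The mean of probes gave Dnajb9 -0.089, Dnajb11 -0.40 and Pdia6 -0.00025, and further probes gave Dnajb9 -0.21, Dnajb11 -1.08, Pdia6 -0.028 and Sec63 -0.14. Without single replicates the ranges were -0.024 to 0.19 for Xbp1, -0.13 to 0.047 for Calr, -0.018 to 0.11 for Canx, -0.14 to 0.10 for Dnajb9, -0.022 to 0.059 for Dnajc3, -0.20 to 0.21 for Sdf2l1, -0.10 to 0.074 for Pdia3, -0.084 to 0.059 for Pdia4, -0.050 to 0.083 for Pdia6 and -0.10 to 0.50 for Ero1a. The median shift and the shift by the brightest 25% each move all genes of an array by the same amount. Their reversals therefore come from 1 constant added to the change of every member. The log2 median signal of vehicle replicate 2 was 7.03, against 5.02 to 5.59 on the other arrays. Its log2 75th percentile was 8.85, against 8.40 to 8.90. Why the arrays differed in this way was not tested, nor was the cause of the other reversals. The groups share no replicate number, so no animals were paired by number, and the only pairing fitted was that of arrays by slide column.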
